A study of Mus musculus with 2 samples.

Results

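Ribosomal protein pseudogenes are copies of the genes that encode the protein parts of the cytosolic ribosome. They were taken here as every gene of the GENCODE M21 mouse annotation whose symbol starts with Rpl (large subunit) or Rps (small subunit) and contains -ps. M21 lists 300 such genes, and 257 of them had a row in both deposited gene tables, among 42462 genes matched to M21 in all. Of the 257, 245 are annotated as processed pseudogenes, 6 as transcribed processed pseudogenes and 6 as protein-coding, although their symbols mark them as copies. By subunit, 155 carry a large subunit symbol and 102 a small subunit symbol.

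Most ribosomal protein pseudogenes arose when a spliced messenger RNA was copied into DNA and inserted elsewhere in the genome, so they lack the introns and the promoter of the coding gene, which is called the parent below. Ribosomal protein messages are among the most abundant in the cell and have many such copies in mammalian genomes. Sequencing reads from a parent message can match a recent copy just as well, so the level given to a copy rests on the bases at which the copy and the parent differ. Where no base differs, it rests on how the shared reads are estimated to divide between them.

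The data are RNA sequencing of total RNA from mouse embryonic hearts at embryonic day 16.5 (strain B6NCrl, no treatment named, both sexes pooled). The study has 1 group with 2 libraries, numbered as biological replicates 1 and 2 with 1 technical replicate each. The pool behind replicate 2 held 41 embryos, and the pool size of replicate 1 is not stated. Each library was made from 10 ng of RNA longer than 200 nt. The labels give the libraries separate biosamples but the same donor identifier, so they were taken as separate pools, an assumption on which each SD rests. Each pool gave a single library, so pool and library preparation cannot be told apart in any difference between them. An exact two-sided sign-flip test over 2 libraries cannot go below p = 0.5, so every statement compares these libraries without a test, and each SD is over n = 2.

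The tables held 37160624 estimated counts for replicate 1 and 40360242 for replicate 2. All 8 heart muscle markers reached 1 TPM, a length-corrected share of the transcripts in a library, in both libraries, with summed levels of 39598 and 40032 TPM. Of the 5 lung markers 3 reached it, and they summed to 933 TPM in replicate 1 and 102 TPM in replicate 2. Of the 5 thymus markers 3 did, and they summed to 37.4 and 99.8 TPM, and the 5 blood markers to 78130 and 65974 TPM. The part of these tissue differences in the pseudogene levels was not tested, and in bulk RNA a change in the number of cells of a type cannot be told apart from a change in RNA per cell.

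Sequences show how much, or how little, separates a copy from its parent. They are 120-base stretches of GENCODE M21 transcripts, within the coding sequence, written 5′ to 3′ on the strand of the gene, with capitals at every base where copy and coding gene differ. Each stretch was chosen as the one with the most differences, up to 8. Rps23-ps1 (ENSMUSG00000100755, GRCm38/mm10 chr3:37714740-37714859, plus strand) is the copy with the highest level, and the stretch has 0 differences from Rps23.
Rps23-ps1: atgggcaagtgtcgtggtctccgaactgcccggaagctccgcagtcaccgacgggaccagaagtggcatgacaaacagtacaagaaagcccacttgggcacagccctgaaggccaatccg
Rps23: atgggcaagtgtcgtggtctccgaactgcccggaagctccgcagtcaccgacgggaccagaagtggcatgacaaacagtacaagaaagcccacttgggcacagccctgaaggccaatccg

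Rpl3-ps1 (ENSMUSG00000084349, chrX:13202572-13202691, plus strand) stands for copies that differ from the parent at isolated bases. Over its 1210 nt it is 99.8% identical to Rpl3, and the stretch has 1 difference.
Rpl3-ps1: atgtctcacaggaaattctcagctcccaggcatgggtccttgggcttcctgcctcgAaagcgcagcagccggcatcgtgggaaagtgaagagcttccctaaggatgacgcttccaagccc
Rpl3: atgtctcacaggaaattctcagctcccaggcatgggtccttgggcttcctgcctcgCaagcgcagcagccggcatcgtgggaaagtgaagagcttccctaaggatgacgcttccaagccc

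Rps19-ps6 (ENSMUSG00000096942, chr12:110898384-110898503, plus strand) is 98.9% identical to Rps19 and differs at 4 bases of the stretch. It is shown because its level differed most between the libraries among the 20 highest copies.
Rps19-ps6: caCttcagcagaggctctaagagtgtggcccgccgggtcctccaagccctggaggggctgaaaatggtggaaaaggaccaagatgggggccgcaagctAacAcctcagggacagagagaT
Rps19: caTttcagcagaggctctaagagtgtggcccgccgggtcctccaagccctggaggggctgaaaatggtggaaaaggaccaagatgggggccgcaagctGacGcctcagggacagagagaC

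Levels of the copies ranged from 0 to 648 TPM. In both libraries 57 of the 257 copies reached 1 TPM (22.2%), against 33.2% of all matched genes and 8.13% of other processed pseudogenes. No estimated count in either library was assigned to 84 copies (32.7%), against 40.5% of all matched genes and 55.0% of other processed pseudogenes. The other 94 copies with counts stayed under 1 TPM in both libraries, 5 reached it in replicate 1 alone and 17 in replicate 2 alone. The median copy was at 0.020 TPM in replicate 1 and 0.21 TPM in replicate 2. By counting error alone, a count of 0 allows up to 3 counts. For these short transcripts (172 to 1214 nt, median 441 nt) that is between 0.101 and 1.54 TPM in replicate 1. In replicate 2 it is between 0.0907 and 1.39 TPM. For the shortest copies absence could therefore not be shown at 1 TPM. The floor does not cover how reads shared with other genes are assigned, so copies that share reads can also be uncertain above it. Rpl21-ps15, listed at 0 in replicate 2, had an interval there that reached above 1 TPM, as given below.

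Summed over the 257 copies, the level was 3791 TPM in replicate 1 and 5054 TPM in replicate 2 (4422 ± 893 TPM, SD, n = 2). The 78 coding ribosomal protein genes summed to 34796 and 31720 TPM, and all 78 reached 1 TPM in both libraries. The copies thus stood at 10.9% of the coding genes in replicate 1 and at 15.9% in replicate 2 (13.4% ± 3.56, SD, n = 2). A few copies carried most of this sum. The 10 copies with the highest mean held 86.6% of it in replicate 1 and 71.5% in replicate 2, and the 20 highest held 94.3% and 88.0%.

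**Figure D1:**
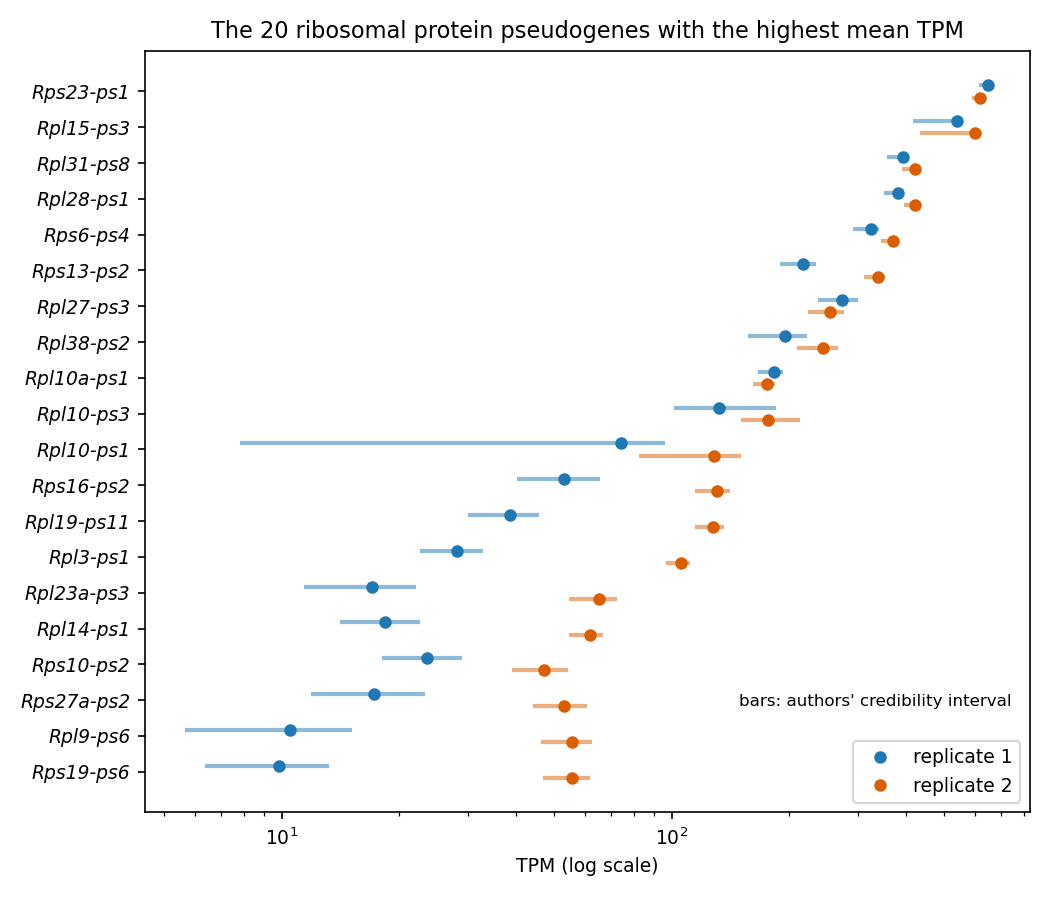
TPM on a log axis (points) of the 20 copies with the highest mean in replicate 1 (blue) and replicate 2 (orange), with the authors' credibility intervals as bars. From Rps23-ps1 down to Rpl10a-ps1 the levels differ by at most 1.56-fold, while from Rps16-ps2 downwards every copy is higher in replicate 2, reaching 9.86 against 55.4 TPM at Rps19-ps6.

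The highest copies belonged to both subunits. Rps23-ps1 was at 648 TPM in replicate 1 and 619 TPM in replicate 2, the highest of all. Its parent Rps23, a small subunit protein of the decoding centre, was at 101 and 94.0 TPM. The copy was therefore listed above its own coding gene in both libraries, with credibility intervals (614 to 653 and 588 to 624 TPM) far above those of Rps23 (91.9 to 106 and 86.3 to 98.6 TPM). Rps23-ps1 also overlaps an exon of Gm5148 on the opposite strand, and whether reads were assigned by strand is not given in the sources used here.

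Rpl15-ps3 was at 539 and 598 TPM, against 158 and 139.6 TPM for Rpl15, a large subunit protein. In replicate 2 the TPM of Rpl15-ps3 lay outside its own interval (433 to 590.5 TPM, posterior mean 536 TPM), the only such case among copies at 1 TPM in both libraries. Some coding ribosomal protein genes also lay above theirs, such as Rplp0 at 853.5 TPM in replicate 1 with an upper bound of 849.8 TPM. Rpl31-ps8 was at 393 and 420.1 TPM, against 229 and 199.9 TPM for Rpl31. Rpl28-ps1, which lies within Zranb3 outside its exons on the opposite strand, was at 379.7 and 421 TPM, against 202 and 199 TPM for Rpl28. In these 3 pairs as well, the copy was listed above the parent in both libraries. Rpl27-ps3, on chromosome 18, was at 273 and 255 TPM, against 72.2 and 71.3 TPM for Rpl27. Rpl10a-ps1 was at 183 and 176 TPM, against 160.0 and 139 TPM for Rpl10a, whose protein forms the L1 stalk of the large subunit. For Rps6-ps4, at 324 and 369 TPM, the level was close to that of Rps6 (325 and 315 TPM), the small subunit protein phosphorylated by S6 kinases.

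Of the 56 families whose parent was measured, 6 had copies that summed to more than the parent in both libraries. These were the families of Rps23, Rpl15, Rpl31, Rpl28, Rpl27 and Rpl10a. In estimated counts, not corrected for length, 5 of them did, with Rpl10a at 84.9% and 92.2% and Rps23 at 319% and 328% of the parent. By percent of the parent's TPM the highest were Rps23 (643% and 660%), Rpl27 (379% and 359%), Rpl15 (342% and 429%), Rpl28 (188% and 213%) and Rpl31 (173% and 212%). At the other end, 16 families summed to under 1% of the parent's TPM in both libraries, among them Rplp0 with 1 copy at 0.00586% and 0.0314%. For some this rested on the estimate used. Rpl7a was at 0.0856% and 0.325% by TPM but at 2.41% and 11.2% by posterior mean TPM. Rpl30 was at 0.471% and 0.554% by TPM but at 6.85% and 6.23% by posterior mean TPM. The other families of the 16 stayed under 1% by posterior mean as well. By TPM, the median over families was 1.33% in replicate 1 and 4.37% in replicate 2.

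Sequence was compared for 222 copies, those whose most counted transcript has 1 length in both M21 and the tables. Of these, 219 aligned to a coding ribosomal protein transcript, with a median identity of 95% (range 70.9% to 100%). The parent named by the symbol was the best match for 216. The exceptions included Rpl36a-ps3, which was 99.7% identical to Rpl36al, a paralog on chromosome 12, and 87.5% identical to Rpl36a. Its level was low, at 0.63 and 0.89 TPM.

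Among the copies compared, 10 were identical to the named parent over every 100-base window: Rps23-ps1, Rpl15-ps3, Rpl31-ps8, Rpl28-ps1, Rps6-ps4, Rps13-ps2, Rpl38-ps2, Rpl10a-ps1, Rpl10-ps1 and Rps16-ps2. They summed to 3006 TPM in replicate 1 and 3443 TPM in replicate 2, which was 79.3% and 68.1% of the level of all 257 copies. Within such a copy a read of 100 bases is also a read of the parent, so the division of reads between them is the quantifier's estimate and is uncertain. The summed TPM of a pair also depends on this division, because TPM corrects for length and the copy is shorter than the parent. The TPM of Rps23 and Rps23-ps1 summed to 749 and 713, but all counts of the pair put on the length of Rps23 gave 422 and 401 TPM. For Rpl15 and Rpl15-ps3 the sum was 697 and 738 TPM, and on the length of Rpl15 it was 412 and 413 TPM.

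The 10 parents had a median of 277 and 249 TPM, against 427 and 400.2 TPM for the other 68 coding ribosomal protein genes. With the TPM of the identical copy added, the median of the 10 was 627 and 634 TPM. With the counts of each pair put on the parent's length it was 461 and 445 TPM. Without their copies the parents were lower than the rest by median, while their place once the copies were counted varied with the length used.

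**Figure D2:**
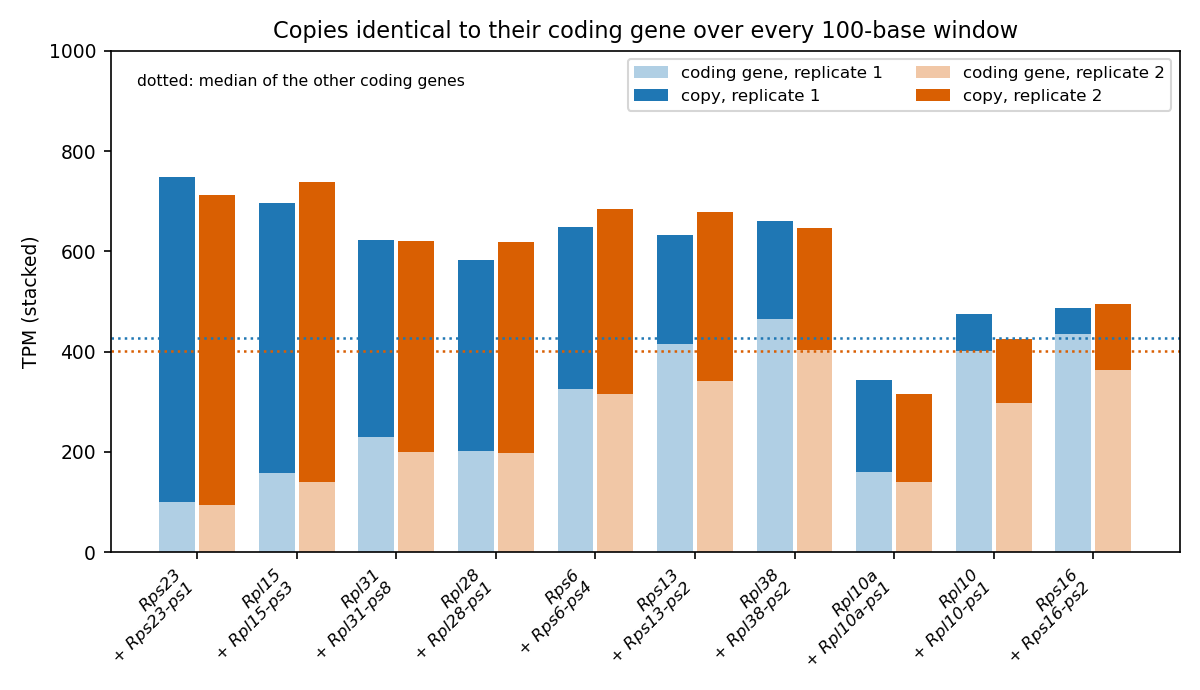
Stacked TPM of the coding gene (pale) and its identical copy (dark) for the 10 copies that match their parent in every 100-base window, in replicate 1 (blue) and replicate 2 (orange). The dotted lines are the medians of the other coding ribosomal protein genes, 427 and 400.2 TPM, and the stacked sums run from 315 to 749 TPM, each part corrected for its own length.

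In 8 of the 10 pairs the copy was higher in replicate 2, and in all 10 the parent was lower there, as were 69 of the 78 coding ribosomal protein genes. Rps13-ps2 was at 217 and 338 TPM, with Rps13 at 415 and 341 TPM. The sum of that pair was 632 and 679 TPM, so copy and parent differed in opposite directions, each by more than their sum. Rpl38-ps2, on chromosome 6, was at 196 and 244 TPM, with Rpl38, a large subunit protein needed for normal skeletal patterning in mice, at 466 and 403 TPM. Rps16-ps2 was at 52.9 and 131 TPM, with Rps16 at 435 and 364 TPM. The copy took 10.8% of that pair's sum in replicate 1 and 26.4% in replicate 2, while the sum itself was 488 and 495 TPM. Rpl10-ps1, within Pax6os1, had a level of 74.0 TPM in replicate 1 with an interval from 7.81 to 96.0 TPM, and 128 TPM in replicate 2 with an interval from 82.6 to 150.3 TPM. These intervals overlap, and the interval of replicate 1 is wide, so the level of Rpl10-ps1 was poorly fixed there.

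Among the copies compared by sequence, those that differ from the parent were lower. The 35 copies not compared, Rpl27-ps3 and Rpl10-ps3 among them, summed to 540 TPM in replicate 1 and 920 TPM in replicate 2. By the median number of differing bases per 100-base window from the closest coding gene, 26 copies were at 0 without being identical in every window, and 17 of them reached 1 TPM in both libraries, with a highest mean of 67.0 TPM. Among 46 copies above 0 and up to 2 differences, 11 reached 1 TPM in both, with a highest mean of 32.6 TPM. Among 38 copies above 2 and up to 4 differences, 2 did, and among 37 above 4 and up to 8, 3 did. Of the 62 copies with over 8 differences none did, and 42 of them had 0 counts in both libraries.

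**Figure D3:**
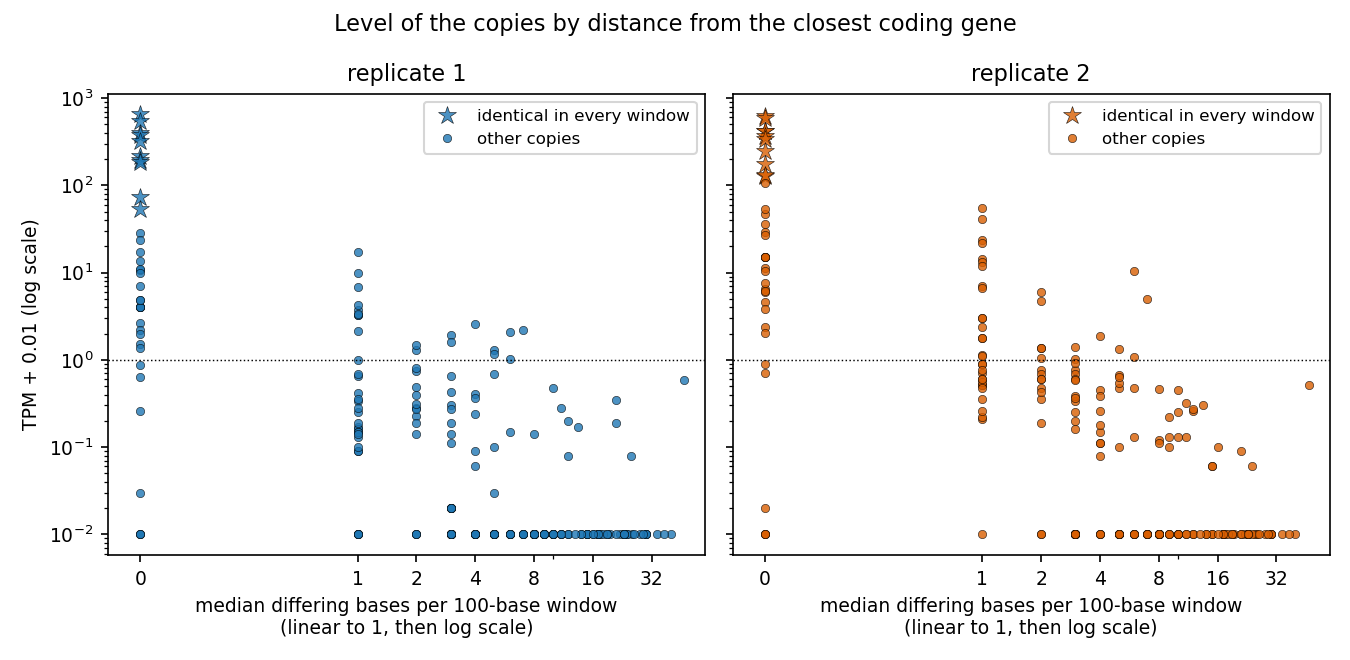
TPM + 0.01 on a log axis against the median number of differing bases per 100-base window, for the copies compared by sequence, in replicate 1 (left) and replicate 2 (right). Stars are the 10 copies identical to the parent in every window. Past 8 differences most copies lie at the bottom edge, where TPM is 0, and the highest mean there was 0.54 TPM.

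Taken by a closer measure, 65 copies had no 100-base window within 2 differences of the closest coding gene. None of these reached 1 TPM in both libraries, 47 had 0 counts in both, and the highest, Rps27-ps1, was at 1.27 and 0.46 TPM. Open reading frames were read from an ATG to a stop codon or to the end of the transcript. The longest frame was taken by its number of codons, without aligning it to the parent's protein. It had at least 95% of the parent's number of codons in 118 of 217 copies compared. Of these 118, 35 reached 1 TPM in both libraries and 25 had 0 counts in both. The longest frame had under 50% of that number in 42 copies, of which 2 reached 1 TPM in both.

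The libraries differed for most copies with a measurable level. Of the 71 copies with a mean of at least 1 TPM, 62 were higher in replicate 2, against 41.2% of all genes at that level. Their median log2 ratio of replicate 2 over replicate 1, on TPM + 0.1, was 1.46, against -0.11 for the 78 coding ribosomal protein genes and -0.06 for all protein-coding genes. The credibility intervals of the libraries did not overlap for 37 of the 71, and all 37 were higher in replicate 2. Among all genes averaging 1 TPM or more, 12.0% had such intervals and were higher in replicate 2, and 18.1% were higher in replicate 1. A call of more than 2-fold apart needed non-overlapping intervals, a log2 ratio over 1 in size and 100 or more estimated counts on average. By it, 18 of 31 copies were higher in replicate 2, against 2.43% of all genes, and 0 were higher in replicate 1, against 0.793%. The same call found 113 of 207 other processed pseudogenes (54.6%) higher in replicate 2 and 0 higher in replicate 1, so the difference was not particular to these copies.

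**Figure D4:**
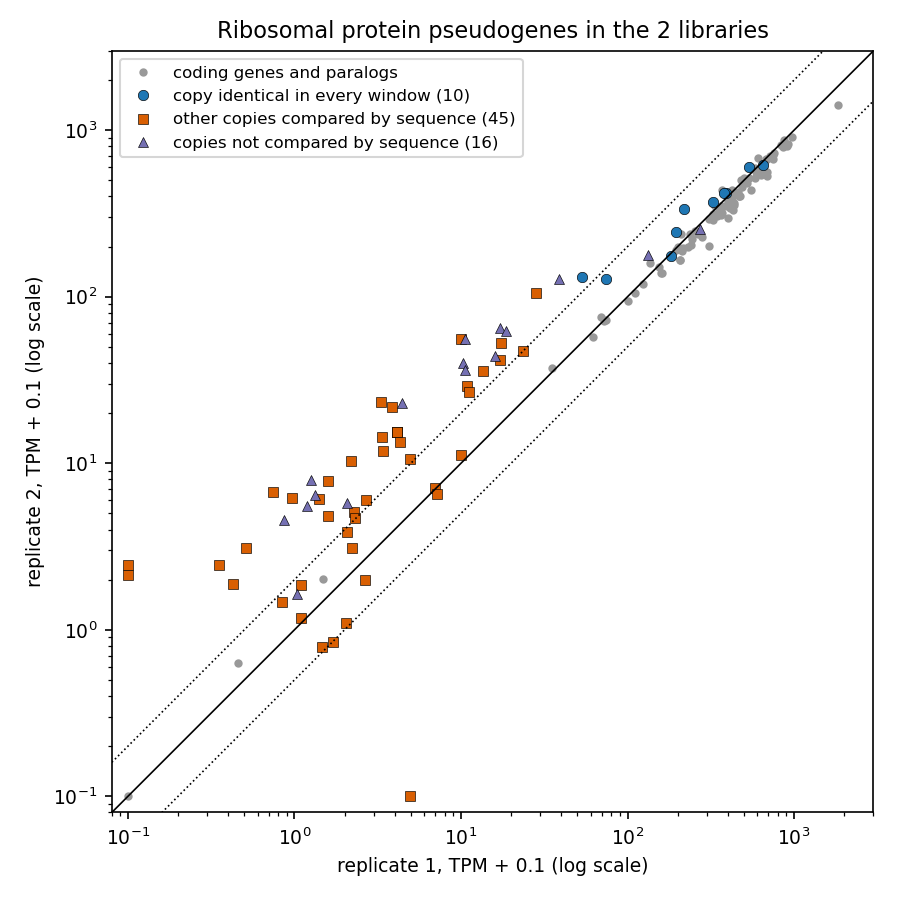
Replicate 2 against replicate 1, TPM + 0.1 on log axes, for the 71 copies with a mean of at least 1 TPM and for the coding ribosomal protein genes and paralogs (grey). The solid line marks equal levels and the dotted lines a 2-fold difference; the coding genes lie along the solid line and 62 of the 71 copies lie above it.

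The 10 largest differences among the called copies came from both subunits. Rps25-ps1 was at 3.76 TPM in replicate 1 and 21.8 TPM in replicate 2, a log2 ratio of 2.50. Rps19-ps6, whose parent is mutated in Diamond-Blackfan anaemia, was at 9.86 and 55.4 TPM, a log2 ratio of 2.48, while Rps19 was at 967 and 909 TPM. Both copies were above 20 TPM in replicate 2 alone.

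Rpl9-ps6, annotated as protein-coding, was at 10.5 and 55.4 TPM. Rps18-ps3 was at 4.31 and 22.8 TPM. Rpl39-ps, a copy of the gene for an exit tunnel protein of the large subunit, was at 10.2 and 39.9 TPM. In each of these 3 the replicate 2 interval lay wholly above that of replicate 1.

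Rpl23a-ps3 was at 17.1 and 65.2 TPM, and its parent, whose protein sits beside the exit tunnel, at 589 and 560.3 TPM. Rpl3-ps1, whose difference from Rpl3 is printed above, was at 28.2 and 106 TPM, with Rpl3 at 539.9 and 513 TPM. Rps26-ps1 was at 10.4 and 36.05 TPM. Each copy was over 3-fold higher in replicate 2 while the parents named here were slightly lower. Rpl14-ps1, within Trpm4 on the opposite strand, was at 18.4 and 61.8 TPM, and Rpl19-ps11 at 38.5 and 128 TPM. Rpl19-ps11 overlaps an exon of Gm27288 on the same strand, so its reads may be shared with that gene.

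The ratio differed by sequence distance. Over the 10 copies identical in every window the median log2 ratio was 0.17 (range -0.07 to 1.30). Over the 45 other copies compared by sequence with a mean of at least 1 TPM it was 1.61, and 39 of them were higher in replicate 2. Within these, the 22 copies at a median of 0 differences had a median of 1.42, and the 17 copies above 0 and up to 2 differences had a median of 2.09, all 17 higher in replicate 2. The 6 copies with more than 2 differences had a median of -0.17, with 3 higher in replicate 2. The 16 copies not compared by sequence had a median of 1.85. These are descriptions over copies, which share libraries and in part share parents, and no test was made of the differences between groups of copies.

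**Figure D5:**
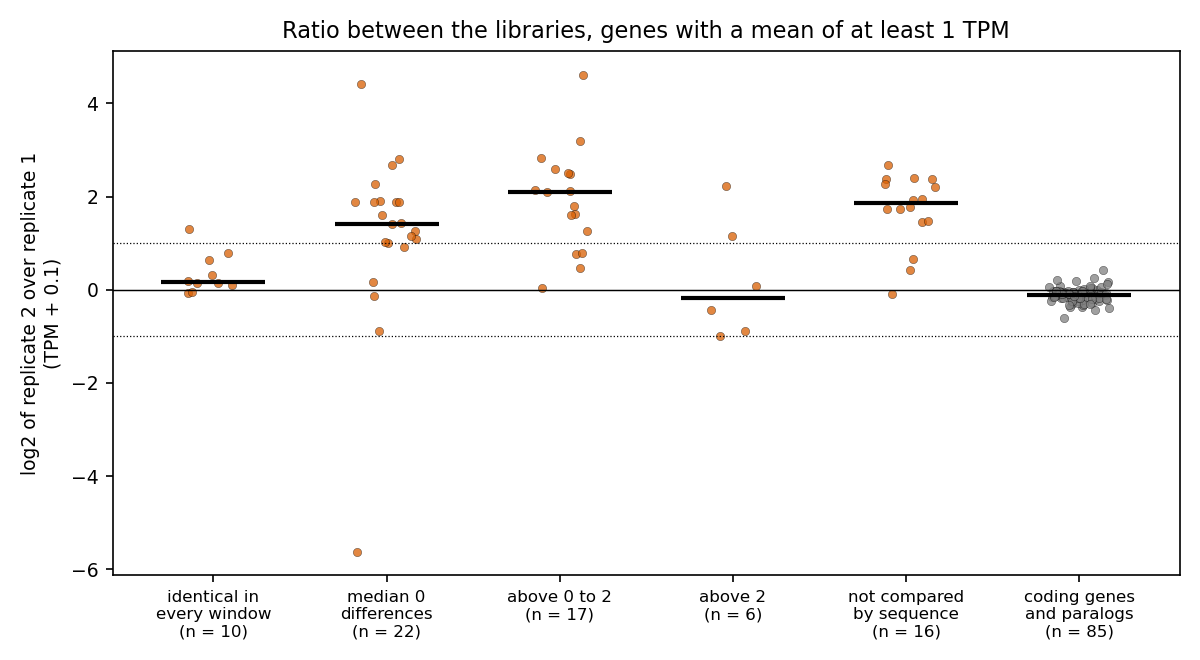
Log2 of replicate 2 over replicate 1 (TPM + 0.1) for copies with a mean of at least 1 TPM, grouped by sequence distance from the closest coding gene, and for coding genes and paralogs (grey); black bars are medians, and sideways spread within a group has no meaning. The medians are 0.17, 1.42, 2.09, -0.17 and 1.85 for the 5 groups of copies, and the coding genes lie near 0.

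In levels, the summed difference between libraries was 1263 TPM for all 257 copies. The 10 identical copies held 437 TPM of it, the 212 others compared by sequence 446 TPM, and the 35 not compared 379.8 TPM. Other processed pseudogenes also differed between the libraries. Over 620 of them with a mean of at least 1 TPM the median log2 ratio was 1.53, with 562 higher in replicate 2. Both kinds were set side by side by the share of 100-base windows found in another gene. Where every window was shared, the median was 0.48 for 14 ribosomal protein copies and 0.48 for 61 other pseudogenes. At 50% to under 100% it was 1.33 for 20 copies and 1.37 for 137 others, and at 10% to under 50% it was 1.62 for 14 copies and 1.75 for 169 others. Below that the values lay apart: above 0 and under 10% the median was -0.66 for 4 copies, 1 of them higher in replicate 2, and 1.84 for 65 others, 63 of them higher. Where no window was shared it was 2.24 for 3 copies and 0.25 for 77 others. Over lincRNA genes (long intergenic noncoding RNAs) the median was -0.02, and over antisense genes -0.04. The share of spike-in counts also differed, at 1.62% in replicate 1 and 3.41% in replicate 2; its part in the copies' ratio was not tested.

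A few copies went the other way. Of the 9 copies with a mean of at least 1 TPM that were higher in replicate 1, 3 had at least 100 mean counts: Rps23-ps1, Rpl27-ps3 and Rpl10a-ps1 with log2 ratios of -0.07, -0.10 and -0.06. Rpl21-ps15 was at 4.82 TPM in replicate 1 and listed at 0 in replicate 2. Its intervals, 0.24 to 17.9 TPM and 0 to 13.3 TPM, overlap over most of their range, and its posterior mean was 7.85 and 4.19 TPM. Posterior means also moved away from TPM for Rpl38-ps1 (0 and 2.36 TPM, posterior means 0.32 and 2.60) and Rps23-ps2 (0 and 2.03 TPM, posterior means 0.34 and 2.07). For Rpl18-ps2, at 0.64 and 6.66 TPM, they were 2.16 and 8.68, and for Rpl17-ps9, at 0.25 and 2.34 TPM, 0.48 and 2.47. Of these 5 copies only Rpl21-ps15 was higher in replicate 1.

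Of the 110 copies with under 10% of windows shared, 58 had 0 counts in both libraries and 5 reached 1 TPM in both. Rps15-ps2 was at 1.30 and 5.96 TPM with 0.59% of its windows shared. It was higher in replicate 2, with intervals that did not overlap. Rps19-ps3 was at 2.57 and 1.88 TPM, Rpsa-ps12 at 1.93 and 1.00 TPM and Rpl38-ps1 at 0 and 2.36 TPM. Of these 3, only Rpl38-ps1 was higher in replicate 2.

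Copies identical to each other were given the same value. Rpl35a-ps2, Rpl35a-ps3, Rpl35a-ps4 and Rpl35a-ps6 share 1 sequence of 333 nt on chromosomes 1, 17, 2 and 5, and each was listed at 4.04 TPM in replicate 1 and 15.3 TPM in replicate 2. Their lower bounds were at or near 0 in both libraries, so which of the 4 loci gave the reads cannot be read from these values. The remaining 3 sets shared a sequence. The 5 copies from Rps12-ps11 to Rps12-ps15, on the X chromosome, were each at 0.010 and 0 TPM. Rps12-ps6, Rps12-ps17 and Rps12-ps18, also on the X chromosome, had 0 counts in both libraries, and Rps19-ps1 and Rps19-ps2, on chromosome 14, were each at 0.080 and 0.89 TPM.

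Families with many copies did not all have high levels. Rps12, a small subunit protein, had the most copies in the tables, 22, of which 10 had 0 counts in both libraries and 2 reached 1 TPM. They summed to 21.2 and 43.4 TPM, led by Rps12-ps3 at 13.4 and 35.7 TPM. Rpl31 had 21 copies, and Rpl31-ps8 alone held 393 of their 397 TPM in replicate 1. Rpl23a and Rps19 had 14 copies each, which summed to 17.8 and 65.9 TPM and to 13.2 and 60.4 TPM. Rpl21 had 12, summing to 6.33 and 9.75 TPM, of which Rpl21-ps8 held 1.15 and 7.85 TPM. By contrast, the 2 copies of Rps23 summed to 648 and 621 TPM. Of the 78 coding ribosomal protein genes, 23 had no named copy in the tables.

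The copies annotated as protein-coding were not alike. Rpl10-ps3, on chromosome 9, was at 132 and 177 TPM, against 400.4 and 297 TPM for Rpl10, the large subunit protein added late in ribosome assembly. Rpl9-ps6 and Rps12-ps3 were lower, as given above, and Rpl36a-ps1 was at 1.96 and 5.65 TPM. Rpl9-ps1 and Rpl36-ps4 had 0 counts in both libraries. Of the 6, then, 4 reached 1 TPM in both libraries and 2 had no count.

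By position, 178 copies lay in no other gene and 29 of these reached 1 TPM in both libraries. Within another gene outside its exons lay 51 copies on the opposite strand, of which 15 reached 1 TPM in both, and 22 on the same strand, of which 11 did. The X chromosome held 35 copies, 13.6% of them, against 17.4% of other processed pseudogenes, and 17 of the 35 had 0 counts in both libraries. The 4 copies that overlap an exon on the same strand are all copies of Rpl19, and of these only Rpl19-ps11 reached 1 TPM in both. Rpl19-ps1 was at 0.41 and 2.99 TPM, Rpl19-ps12 at 0.080 and 0.14 TPM and Rpl19-ps4 at 0.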

How the data were processed

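RNA was measured in 2 libraries of 1 group, quantified by the authors on mm10 with annotation M4, 1 table per library; the sources used here name no aligner or quantifier, and the columns are those RSEM writes. The deposited estimated counts are fractional in part and carry no normalization. TPM was computed by the authors over all rows, spike-ins included, and was used as deposited. Per the file headers, the tables also give posterior mean TPM, signal bounds of a credibility interval of TPM whose level is not stated, the posterior SD of the count (a score of assignment error) and, in transcript tables, each transcript's percent of its gene. The intervals cover counting and assignment error only, and the floors cover counting error only. Without molecular identifiers, reads may repeat a molecule.

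Genes were matched to GENCODE M21 (GRCm38) by identifier without version. Ratios used log2 of TPM + 0.1. M21 transcript sequences were cut into 100-base windows, sought on both strands in other genes' transcripts, compared without gaps with coding ribosomal protein transcripts, and aligned with blastn 2.17.0; pandas 2.3.3 and numpy 2.4.6 were used. Sequence was compared only where lengths agreed (222 of 257 copies). The 2-fold call and the window search were tested on simulated data. Nothing says the pools came from separate litters.

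The members, gene lists and named genes were chosen with earlier results of these data known. Named are the 20 highest copies, the 10 largest called differences, the 5 copies whose posterior mean departs most from TPM, the 5 largest families, the 5 with the highest percent of the parent, copies not annotated as pseudogenes, the 5 highest with under 10% of windows shared, copies overlapping an exon on the same strand, the 5 with most counts, and the parents, except that some of these are not reported here. Other copies named (Rpl36a-ps3, Rps27-ps1, the Rplp0 copy and the identical sets) were chosen after their values were seen.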

Additional observations from a re-analysis of the deposited data

How the results depend on the processing

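Of 46 alternatives, 36 stayed within the spread between libraries, or within 1.5 times for a count, and 10 did not. The 36 include leaving out 1 library for the sum, its percent of the coding genes and the median percent of the parent. These could not fall outside the spread, because each of 2 libraries always lies within the SD of their mean. At 5 TPM, 30 copies passed in both libraries in place of 57. As a rate of estimated counts (CPM) the copies summed to 1397 in place of 4422 TPM, and in estimated counts they were 9.41% of the coding genes in place of 13.4%. With a minimum of 20 estimated counts 32 copies were called 2-fold apart, and with no minimum 34, in place of 18. The share of all genes called at these lower minima is not given here, so these counts have no background beside them. The SD of the log2 ratio over copies was 1.40, and 0.97 on posterior mean TPM, 0.91 with a pseudocount of 1 and 0.84 at a mean of 100 or more estimated counts. Of copies with at least 100 estimated counts, 28 of 31 were higher in replicate 2, an alternative chosen after seeing the data, as were those on copies compared by sequence, centring and posterior means for that count.

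With the counts of each pair on the parent's length, the median of the 10 pairs was 453 in place of 630.3 TPM, also chosen after seeing the data.

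With 1 library left out, copies at 1 TPM numbered from 62 to 74, copies with 0 counts from 100 to 121, the sum ran from 3791 to 5054 TPM, its percent of the coding genes from 10.9% to 15.9%, and the median percent of the parent from 1.33% to 4.37%, so the last value depends on which library is used. No paired analysis was possible because the study has 1 group, so no replicate number is shared between groups. Depth limits the shortest copies. Reads shared with parents or with other copies limit the identical ones, and also copies such as Rpl21-ps15 and the Rpl35a copies that share 1 sequence.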
